A study of Mus musculus with 12 samples.

Results

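The genes of hepcidin, hepatic iron transport and storage, and the metallothioneins were followed across mRNA sequencing of livers from 12 male C57BL/6J mice. The list was Hamp, Hamp2, Bmp6, Tfrc, Tfr2, Slc40a1, Fth1, Trf, Mt1 and Mt2, that is 10 genes of the 22170 gene names in the table, and they were found by gene name. Of these, 8 names were present, Trf stood under its protein name Tf, and Hamp2 had no gene name of its own, its reference transcript being listed under Hamp at 0 in every liver, so 9 genes were described by their sums. From 5 weeks of age, mice were given a normal diet (ND), a high-fat diet (HFD), the HFD with 1.5% (w/w) of an ethanol extract of Chrysanthemum morifolium leaves (CLE), or the HFD with 0.003% (w/w) luteolin (LU), a flavonoid of that leaf. Liver RNA was sequenced from 3 mice per group, which the paper calls representative and which were part of larger groups. How they were chosen is not stated. Feeding lasted 16 weeks, and the mice were 21 weeks old at sampling. CLE and LU mice therefore received the HFD as well, and the controls of both compounds are the HFD mice. The extract is a mixture, its dose is not matched to that of luteolin, and no gene was altered in any group. Levels are FPKM, Cufflinks' fragment values scaled by transcript length and library size, summed over the transcripts of a gene. Values are listed by mouse number, which are 2, 3 and 4 for ND, 12, 15 and 18 for HFD, 2, 4 and 11 for CLE, and 2, 3 and 8 for LU.

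Hepcidin, the peptide hormone encoded by Hamp, is made by hepatocytes and lowers plasma iron by causing the iron exporter ferroportin (Slc40a1) to be degraded. Its transcription is raised by bone morphogenetic proteins such as BMP6, which endothelial cells of the liver release when iron is plentiful, through SMAD proteins, and by interleukin 6 through STAT3 during inflammation. Inside cells, the iron regulatory proteins bind hairpins called iron-responsive elements. They hold back translation of ferritin (Fth1) and ferroportin and stabilise the mRNA of the transferrin receptor (Tfrc) when iron is scarce. Metallothioneins are small proteins that bind zinc and copper, and their genes are switched on by the zinc-sensing factor MTF1 and by glucocorticoids.

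In the test across all 4 groups, 3 of the 9 measured genes were called, Fth1, Slc40a1 and Tfrc, beside 24.4% of all genes. They are also those of the list whose reference transcripts hold an iron-responsive element. Whether the elements bear on these calls was not tested. The search, made after the values were known, asked for a loop CAGTGN other than CAGTGG, 5 paired bases on each side with G-T pairs allowed, and an unpaired C before the stem. Such a match was present in 662 of 141767 mouse reference transcripts (0.467%). It was in 5 of 9 Fth1, 3 of 8 Slc40a1 and 2 of 7 Tfrc transcripts of GENCODE M21, and in none of the transcripts of Hamp, Hamp2, Bmp6, Tfr2, Trf, Mt1 or Mt2. Each element is given as 28 bases, 5′ to 3′, on GRCm38, with the 6 bases of the loop in capitals.
Fth1 element, 5′ UTR, chr19:9982734-9982761, plus strand: cctgcttcaaCAGTGCttgaacggaacc
Slc40a1 element, 5′ UTR, chr1:45925464-45925491, minus strand: acttcagctaCAGTGTtagctaagtttg
Tfrc element 1, 3′ UTR, chr16:32631221-32631248, plus strand: ttatcggaagCAGTGCcttccataatta
Tfrc element 2, 3′ UTR, chr16:32631600-32631627, plus strand: ttatcgggagCAGTGTcttccataatgc
Tfrc element 3, 3′ UTR, chr16:32631665-32631692, plus strand: atatcggagaCAGTGAtctccatatgtt
Tfrc element 4, 3′ UTR, chr16:32631712-32631739, plus strand: ttatcgggaaCAGTGTttcccataattt
In these transcripts the search found 1 match each in Fth1 and Slc40a1, ahead of the coding sequence, and 4 in Tfrc, all behind it. Elements with another loop would be missed. A match in the sequence is a description and says nothing of the proteins bound in these livers.

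The promoters of Mt1 and Mt2 are shown because the levels of both genes moved together from liver to liver. The windows are from RefSeq on GRCm38.p6 and run from 250 bases before the annotated start to 30 bases after it. Capitals mark the core of the metal response element, written as TGCACNC or TGCGCNC, on either strand.
Mt1 promoter, chr8:94178839-94179118, plus strand: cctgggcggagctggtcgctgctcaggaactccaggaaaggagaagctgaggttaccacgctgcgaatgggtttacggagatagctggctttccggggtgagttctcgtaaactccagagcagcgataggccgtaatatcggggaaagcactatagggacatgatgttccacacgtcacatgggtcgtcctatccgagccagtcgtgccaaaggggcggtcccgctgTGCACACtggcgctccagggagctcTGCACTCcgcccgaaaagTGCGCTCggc
Mt2 promoter, chr8:94172368-94172647, plus strand: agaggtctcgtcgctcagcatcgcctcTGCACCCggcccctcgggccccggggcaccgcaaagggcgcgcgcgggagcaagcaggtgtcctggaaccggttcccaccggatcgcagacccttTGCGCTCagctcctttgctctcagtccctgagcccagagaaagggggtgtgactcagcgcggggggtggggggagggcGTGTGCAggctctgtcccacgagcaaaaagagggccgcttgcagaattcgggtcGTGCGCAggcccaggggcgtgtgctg
The Mt1 window held 3 matches and the Mt2 window 4, with no overlap between them. The assembled transcript behind 99.5% of the Mt2 level starts at position 94172259, ahead of the whole Mt2 window shown. At least 1 match was present in 24.1% of all 32851 mouse promoter windows of this length, with TGCACNC in 11.7% and TGCGCNC in 14.4%. The window of the zinc exporter gene Slc30a1 held 1.

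For hepcidin, the promoters of Hamp and its neighbour Hamp2 are shown because both genes are near copies whose fragments were not kept apart. Capitals mark GGCGCC, the core of the BMP response element, and TTCTTGGAA, a STAT3 site, again on either strand.
Hamp promoter, chr7:30944000-30944279, minus strand: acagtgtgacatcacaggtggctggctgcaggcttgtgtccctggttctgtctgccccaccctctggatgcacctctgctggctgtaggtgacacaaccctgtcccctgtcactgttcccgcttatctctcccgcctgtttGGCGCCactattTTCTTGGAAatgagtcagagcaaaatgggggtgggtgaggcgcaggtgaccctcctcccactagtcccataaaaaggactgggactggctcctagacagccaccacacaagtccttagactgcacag
Hamp2 promoter, chr7:30924152-30924431, minus strand: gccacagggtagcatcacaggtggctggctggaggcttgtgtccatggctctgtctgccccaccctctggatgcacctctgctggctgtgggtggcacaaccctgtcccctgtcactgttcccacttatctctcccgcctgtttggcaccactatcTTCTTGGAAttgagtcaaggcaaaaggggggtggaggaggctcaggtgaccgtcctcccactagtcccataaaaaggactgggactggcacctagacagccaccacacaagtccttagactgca
Both windows held TTCTTGGAA, which was in 0.399% of all promoter windows, and the Hamp window held GGCGCC, which was in 10.9%. The matches did not overlap. GGCGCC was not found in these letters of the Hamp2 window. In a global alignment, the windows were 90.9% identical, and the reference transcripts of 410 and 420 bases were 92.6% identical.

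Hepcidin mRNA was abundant, and its level varied widely among mice fed alike in the ND, HFD and CLE groups and little in the LU group. Hamp (ENSMUSG00000050440, chr7:30942368-30944032) was at 689, 414 and 827 FPKM in the ND livers, at 1123, 897 and 648 in the HFD livers, at 572, 1770 and 923 in the CLE livers, and at 496, 623 and 506 in the LU livers. The highest value, 1770 in CLE mouse 4, was 4.28 times the lowest, 414 in ND mouse 3. HFD livers were above every LU liver, and all other pairs of groups overlapped. Means were 643 ± 210 (ND), 889 ± 237 (HFD), 1088 ± 616 (CLE) and 542 ± 70.6 FPKM (LU) (SD, n = 3 mice). On log2(FPKM + 1), HFD exceeded ND by 0.49 (95% interval -0.28 to 1.26, adjusted p = 0.41), and by 0.20 without ND mouse 3 and 0.30 without HFD mouse 12. LU was below HFD by a difference of -0.69 (interval -1.45 to 0.08, adjusted p = 0.29), and CLE against HFD gave 0.17 (interval -0.60 to 0.94, adjusted p = 0.77). Between CLE and LU the difference was 0.86 (interval 0.09 to 1.63), with an unadjusted p of 0.031 by the moderated test and an adjusted p of 0.97, and it lay between 0.43 and 1.24 with a mouse left out. None of these passed. In bulk liver, fewer cells of a type and less RNA per cell cannot be told apart, here and in what follows.

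Hamp and Hamp2 (ENSMUSG00000056978, chr7:30922372-30924681) could not be separated in these values. Of the mean Hamp sum, 71.8% came from the reference Hamp transcript and 28.2% from an assembled transcript that runs from Hamp2 through Hamp. The share of the assembled transcript lay between 22.4% and 36.3% in the 12 livers. The reference transcript alone was at 496, 278 and 565 FPKM in ND, 807, 572 and 503 in HFD, 407, 1370 and 676 in CLE, and 347, 439 and 349 in LU livers. With rows assigned to genes by their reference transcript, a choice made after seeing the data, neither Hamp nor Hamp2 passed in any comparison. The gene of the shared transcript is thus uncertain.

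**Figure D1:**
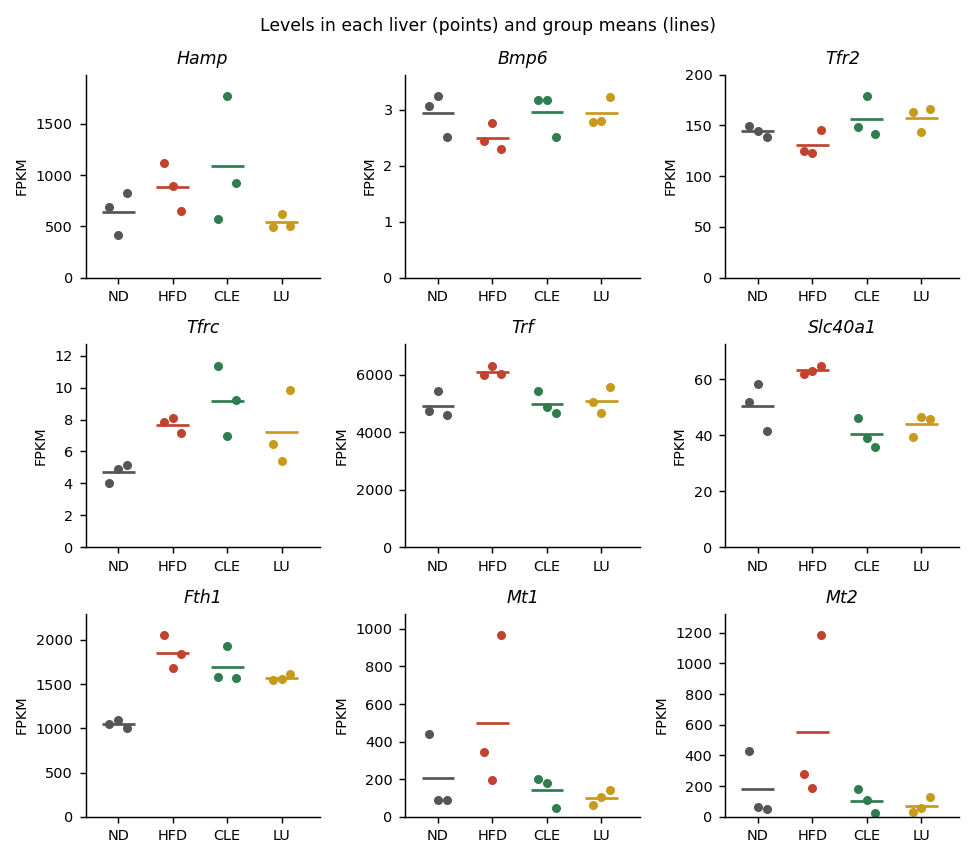
FPKM of 9 genes (vertical axes, from 0) in each liver by diet group, with 1 point per mouse and a line at the group mean. Fth1 was at most 1094 in the ND livers and at least 1547 in the others, whereas Mt1 and Mt2 were set apart by single high livers of ND and HFD.

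Bmp6 (ENSMUSG00000039004, chr13:38345107-38500302), the ligand that couples iron to hepcidin, was low and level. It was at 3.07, 3.24 and 2.52 FPKM in ND, 2.44, 2.77 and 2.30 in HFD, 3.18, 3.18 and 2.52 in CLE, and 2.79, 2.80 and 3.23 in LU livers. Every LU value was above every HFD value, by a margin of hundredths, and the remaining groups overlapped. The differences on the log2 scale were -0.17 for HFD against ND (interval -0.43 to 0.09), 0.17 for CLE against HFD (interval -0.08 to 0.43) and 0.17 for LU against HFD (interval -0.09 to 0.43), with adjusted p of 0.39, 0.34 and 0.43. Of 12 markers of sinusoidal endothelial cells, 1 was called in HFD against ND, beside 12.1% of all genes. It was Stab2, higher by 0.61, with adjusted p up to 0.11 with a mouse left out. None was called by limma in CLE or LU against HFD, beside 6.03% and 1.03% of all genes. Of the Bmp6 sum, 61.0% came from an assembled fragment at the 3′ end of the gene.

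Around Bmp6, the list of the BMP and SMAD route to hepcidin held 24 other tested genes, and in HFD against ND livers 4 rose and 1 fell, beside 12.1% of all 11566 tested genes called in either direction. Gdf15, a stress-induced relative of the BMPs, was at 0.728, 1.58 and 3.53 FPKM in ND livers and at 25.0, 13.1 and 13.3 in HFD livers, a rise of 2.67 ± 0.55 (SE, adjusted p = 0.0080). Bmp7 rose by 0.72 and was low, at 0.19, 0.31 and 0.27 FPKM in ND and 0.95, 1.09 and 1.18 in HFD livers. Bmp5 rose by 0.64, with an adjusted p of 0.11 without ND mouse 2 and above the threshold without any 1 of the HFD mice. Smad9, a signal-carrying SMAD, fell by 1.54 (adjusted p = 0.0016). The median of the list was 0.16, against 0.11 for all genes.

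In CLE against HFD livers, 3 genes of the list rose and 2 fell, beside 6.03% of all genes called. The 3 that rose, Id1, Atoh8 and Smad6, are known to be switched on by BMP signalling in hepatocytes. Id1, a transcriptional inhibitor, was at 12.1, 5.21 and 3.85 FPKM in HFD livers and at 16.2, 26.7 and 16.5 in CLE livers, a difference of 1.47 ± 0.38 (adjusted p = 0.044). Atoh8, a transcription factor, was at 10.7, 9.05 and 5.97 in HFD and 13.2, 26.6 and 18.9 in CLE livers, a difference of 1.08 ± 0.27 (adjusted p = 0.041). Smad6, which restrains BMP signalling, was at 3.42, 3.45 and 2.74 in HFD and 4.81, 7.26 and 5.77 in CLE livers, a difference of 0.71 ± 0.13 (adjusted p = 0.020). For all 3 genes, every CLE liver was above every HFD liver. They are named because they passed this test, so the placement is no further support, and the share of all genes so placed is not given here. The liver of CLE mouse 4 had the highest level of each of them, and the highest Hamp level. Its library was also extreme in other ways described below. It had the largest share of rRNA-derived rows (72.5%) and the highest correlation of deviations with GC content (0.48) of the 12 libraries. The part of these features in the shared peak was not tested. Bmp5 fell by 0.63 and the receptor gene Bmpr1a by 0.52. These calls rested on single mice and on the fit: of the 24 genes, 5 were called with all mice, 0 without HFD mouse 15, HFD mouse 18 or CLE mouse 4, 1 without HFD mouse 12, 2 without CLE mouse 11 and 9 without CLE mouse 2. None was called with those groups alone or with reference transcripts only, where Atoh8 was at 0.57 (adjusted p = 0.15) and Smad6 at 0.27 (adjusted p = 0.21), and after correction for GC content and length 1 was. Smad7, a related inhibitor picked after its values were seen, gave a difference of 0.59 with an adjusted p of 0.12. In LU against HFD livers, none of the 24 genes passed the moderated test of limma, beside 1.03% of all genes called, and Id1 was at 6.81, 3.45 and 7.34 FPKM in LU livers. Between CLE and LU no gene of this list passed limma's test, which 0.00865% of all genes did. Id1 was higher in CLE than in LU livers by 1.61 ± 0.38 (adjusted p = 0.75), and Smad6 by 0.53 ± 0.13 (adjusted p = 0.75).

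**Figure D2:**
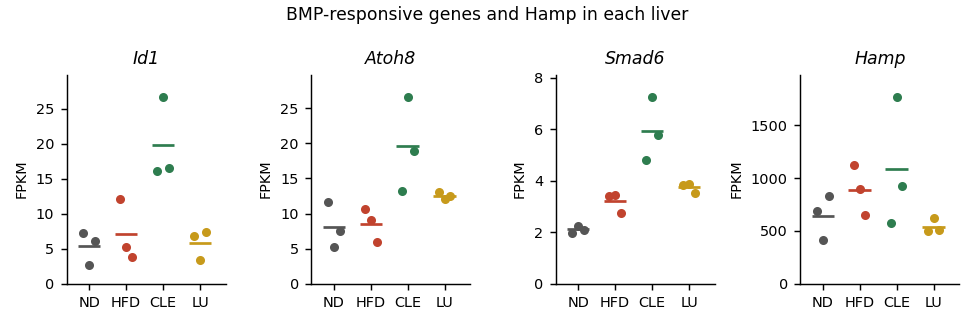
FPKM of Id1, Atoh8, Smad6 and Hamp (vertical axes, from 0) in each liver by group, with 1 point per mouse and a line at the mean. The 3 CLE livers are above the 3 HFD livers for Id1, Atoh8 and Smad6, shown because they were called between these groups. For Hamp the CLE livers span from 572 to 1770 and overlap the HFD livers.

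Among genes of the interleukin 6 and STAT3 route, 8 were tested. Lepr, the leptin receptor gene, was at 28.5, 15.8 and 27.5 FPKM in ND and 1.90, 1.37 and 2.004 in HFD livers. It fell by 3.14 ± 0.31 (adjusted p = 6.6e-05) and was the only gene of the list called there, beside 12.1% of all genes. In CLE against HFD livers none passed limma's test, beside 6.03% of all genes called. Socs3, an inhibitor induced by STAT3, was at 2.70, 3.604 and 4.02 FPKM in HFD livers and at 10.9, 12.8 and 7.21 in LU livers, a rise of 1.33 ± 0.25 (adjusted p = 0.030). Socs3 was the only gene of the list called in LU against HFD, beside 1.03% of all genes. Its call was lost when HFD mouse 12, 15 or 18 or LU mouse 2 or 3 was left out, with adjusted p from 0.072 to 0.15.

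The receptors of the carrier transferrin behaved unlike each other. Tfrc (ENSMUSG00000022797, chr16:32608920-32632794), the receptor for transferrin uptake, was at 4.02, 4.91 and 5.18 FPKM in ND, 7.82, 8.09 and 7.16 in HFD, 11.4, 6.99 and 9.21 in CLE, and 6.44, 5.42 and 9.86 in LU livers. Each of the 9 livers on the HFD, with or without a compound, was above each ND liver. CLE exceeded ND by 0.82 ± 0.19 (adjusted p = 0.011), where 27% of all tested genes were called and Tfrc was 1 of 2 of the list. HFD against ND gave 0.61 ± 0.19 and LU against ND 0.50 ± 0.19, with adjusted p of 0.057 and 0.091, which missed the threshold. The HFD value passed with a pseudocount of 0.1 (adjusted p = 0.049) and with those 2 groups alone (adjusted p = 0.011). CLE against HFD was 0.21 (interval -0.21 to 0.63) and LU against HFD was -0.11 (interval -0.53 to 0.31), and neither passed.

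Tfr2 (ENSMUSG00000029716, chr5:137569840-137587481), which senses iron-loaded transferrin on hepatocytes, was at 149, 145 and 139 FPKM in ND, 124, 123 and 145 in HFD, 148, 179 and 141 in CLE, and 163, 144 and 166 in LU livers. All groups overlapped. Its differences were -0.14 for HFD against ND, 0.25 for CLE against HFD and 0.27 for LU against HFD (SE 0.12 in each), with adjusted p of 0.46, 0.17 and 0.22. Transferrin itself, Trf (ENSMUSG00000032554, chr9:103204001-103230444), had the highest level of the list. Its values were 4744, 5432 and 4605 FPKM in ND, 5991, 6309 and 6035 in HFD, 5427, 4885 and 4651 in CLE, and 5037, 4685 and 5579 in LU livers. The HFD livers were above all others, yet none of the differences passed. HFD exceeded ND by 0.31 (adjusted p = 0.18), and CLE and LU differed from HFD by -0.30 (adjusted p = 0.19) and -0.26 (adjusted p = 0.32).

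Ferroportin mRNA was lower in the livers of the CLE group than in those of the HFD group. Slc40a1 (ENSMUSG00000025993, chr1:45908068-45926523) encodes this iron exporter, which Kupffer cells and hepatocytes carry. It was at 51.9, 58.5 and 41.7 FPKM in ND, 62.1, 63.1 and 64.9 in HFD, 46.3, 39.0 and 35.9 in CLE, and 39.4, 46.6 and 45.9 in LU livers. HFD livers were the highest and close together, and none of the other 9 livers reached them. CLE was below HFD by a difference of -0.64 ± 0.13 (interval -0.93 to -0.36, adjusted p = 0.027), the only gene of the list called in this comparison. LU against HFD gave -0.52 ± 0.13 (adjusted p = 0.080), and HFD against ND gave 0.33 ± 0.13 (adjusted p = 0.13). Between CLE and LU the difference was -0.12 (interval -0.41 to 0.17). None of 12 Kupffer cell and macrophage markers was called by limma in CLE or LU against HFD, beside 6.03% and 1.03% of all genes. Their median difference was -0.02 and -0.19, and their part in the Slc40a1 result was not tested. The CLE call was lost when CLE mouse 4, CLE mouse 11, or any 1 of the HFD mice 12, 15 and 18 was left out, with adjusted p from 0.055 to 0.11, while the difference itself stayed between -0.74 and -0.57 for each mouse left out. It was also lost with those groups alone (adjusted p = 0.066) and when low genes were kept in (adjusted p = 0.053). LU passed with its 2 groups alone (-0.52, adjusted p = 0.041).

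Different transcripts made up Slc40a1 and Tfrc in different groups, as estimated by Cufflinks, whose division among overlapping transcripts is less certain than their sum. This was not particular to them. A reference transcript of Trf, which held no iron-responsive element, was at 2027, 3163 and 3250 FPKM in HFD livers. It was at 2539, 0.0038 and 1157 in CLE and 1800, 1190 and 2292 in LU livers. The CLE and LU libraries also differed from the others by GC content, as given below, and its part here was not tested. The full-length reference transcript of Slc40a1, which holds the iron-responsive element, was at 38.4, 50.6 and 31.3 FPKM in ND, 45.9, 58.9 and 58.7 in HFD, 31.9, 16.6 and 16.0 in CLE, and 19.4, 20.4 and 30.7 in LU livers. An assembled transcript that starts at position 45923309, 2155 bases downstream of the element, was at 10.7, 3.25 and 5.07 in ND, 6.99 in HFD mouse 12 and at or below 0.0020 in HFD mice 15 and 18. In CLE livers it was at 10.02, 17.98 and 17.4, and in LU livers at 16.1, 20.6 and 10.9. It therefore made up between 21.7% and 48.5% of the gene in CLE and LU livers. Summed over reference transcripts only, the CLE against HFD difference was -1.29 (adjusted p = 0.031) and that of LU against HFD -1.14 (adjusted p = 0.051).

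Tfrc showed the like. Its full-length transcript was at 1.60, 1.87 and 1.64 FPKM in ND, 2.70, 4.80 and 3.69 in HFD, 3.36, 0.204 and 1.43 in CLE, and 0.402, 0.704 and 2.73 in LU livers. A shorter reference transcript with a retained intron, at the 3′ end of the gene, was at 1.44, 1.27 and 1.92 in ND, 3.43, 1.95 and 2.06 in HFD, 6.14, 4.80 and 6.26 in CLE, and 4.31, 3.19 and 5.13 in LU livers. Every CLE liver had more of the shorter transcript than any ND or HFD liver. Taking it alone, as the Tfrc row with the highest mean, CLE exceeded HFD by 0.97 (adjusted p = 0.037).

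**Figure D3:**
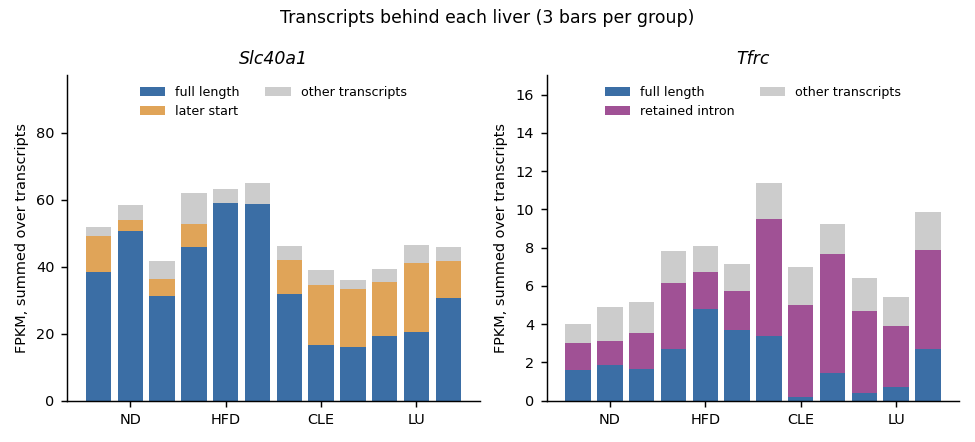
FPKM of Slc40a1 and Tfrc in each liver (vertical axes, from 0, 3 bars per group in the order of mouse numbers), divided into the full-length reference transcript, a second transcript and all others. The later-starting Slc40a1 transcript is nearly absent from 2 HFD bars, and the Tfrc transcript with a retained intron is the larger part of every CLE and LU bar.

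Ferritin heavy chain mRNA was higher in every liver of mice on the HFD. Fth1 (ENSMUSG00000024661, chr19:9980598-9985098), the subunit that oxidises iron for storage, was at 1054, 1094 and 999 FPKM in ND, 2050, 1680 and 1837 in HFD, 1581, 1925 and 1563 in CLE, and 1547, 1554 and 1611 in LU livers. The lowest of the 9 livers on the HFD was well above the highest ND liver. Means were 1049 ± 47.7 (ND), 1856 ± 186 (HFD), 1690 ± 204 (CLE) and 1570 ± 35.1 FPKM (LU). Fth1 rose by 0.82 ± 0.13 in HFD against ND (interval 0.54 to 1.10, adjusted p = 0.0017), where it was the only 1 of the 9 measured genes called, beside 12.1% of all genes. CLE against ND gave 0.68 ± 0.13 (adjusted p = 0.0046) and LU against ND 0.58 ± 0.13 (adjusted p = 0.014), where 14.9% of all genes were called. These comparisons share the ND mice. Neither compound group differed from HFD by the test, at -0.14 for CLE (interval -0.41 to 0.14) and -0.24 for LU (interval -0.51 to 0.04), though all LU livers were below all HFD livers. Leaving out ND mouse 4 took the LU against ND call to an adjusted p of 0.054. Fth1 has processed copies elsewhere in the genome, so its level is uncertain to the extent that fragments were shared with them.

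Of 15 other tested genes of iron uptake, export and storage, 6 were higher and none lower by the test in HFD against ND livers, 9 were not called, and the median was 0.20, beside 12.1% called and a median of 0.11 over all genes. The number called was 3 when ND mouse 2, ND mouse 3 or HFD mouse 12 was left out, and 3 with median-of-ratios scaling. Lcn2, a protein that binds bacterial iron carriers and rises in inflammation, went from 1.10, 3.04 and 5.24 FPKM to 55.4, 24.6 and 28.6, a rise of 3.22 ± 0.63 (adjusted p = 0.0063). The ferric reductase genes Steap4 and Steap3 rose by 1.45 and 0.73, with adjusted p up to 0.053 (without ND mouse 2) and 0.11 with a mouse left out, and Slc25a37, the mitochondrial iron importer, rose by 1.25 from 6.38, 10.5 and 7.58 to 21.1, 20.0 and 19.9 (adjusted p = 0.00048). In CLE against HFD livers, 1 of the 15 fell and none rose, beside 6.03% of all genes called. That gene was Ncoa4, the receptor that delivers ferritin for breakdown, at 45.4, 62.1 and 46.8 FPKM in HFD and 35.9, 14.3 and 26.3 in CLE livers (-1.06 ± 0.25, adjusted p = 0.037). This call was lost when HFD mouse 12, 15 or 18 or CLE mouse 4 or 11 was left out, and without CLE mouse 4 the difference was -0.71 (adjusted p = 0.11). In LU against HFD, none of the 15 passed limma's test, beside 1.03% of all genes called, and Ncoa4 was at 25.2, 22.8 and 32.0. Of 10 genes of iron sensing, Aco1, which encodes iron regulatory protein 1, rose by 0.44 ± 0.10 in HFD against ND (adjusted p = 0.016), a call lost without ND mouse 2, HFD mouse 15 or HFD mouse 18 (adjusted p up to 0.078). That is 1 of 10, beside 12.1% of all genes, and none was called in CLE or LU against HFD, beside 6.03% and 1.03%.

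Of 21 heme genes, 5 were higher and none lower by the test in HFD against ND, and 16 were not called, beside 12.1% of all genes called, most of them (82.57%) higher. The number called was 2 when ND mouse 3, ND mouse 4 or HFD mouse 18 was left out, 3 without HFD mouse 12, and 3 with median-of-ratios scaling. Hmox1, the heme-degrading oxygenase, was at 7.72, 7.88 and 7.21 FPKM in ND and 15.2, 11.7 and 15.4 in HFD livers (0.80 ± 0.14, adjusted p = 0.0027). Mfsd7c, a membrane transporter gene also named Flvcr2, rose by 1.31, Blvrb, a biliverdin reductase, by 0.82, and Hp, the hemoglobin-binding haptoglobin, by 0.70. With a mouse left out, adjusted p reached 0.081 for Blvrb and 0.15 for Hp. In CLE against HFD, 1 of 21 was called, namely Alad, a heme synthesis enzyme, which rose by 0.64 ± 0.16 (adjusted p = 0.044), beside 6.03% of all genes. Its call was lost without HFD mouse 12, 15 or 18 or CLE mouse 4 or 11, with adjusted p up to 0.17. In LU against HFD none of the 21 passed limma's test, beside 1.03% of all genes called. The median differences of the heme list were 0.22, 0.04 and 0.09 in the 3 comparisons.

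Metallothionein mRNA differed more among mice of 1 group than any other gene of the list. Mt1 (ENSMUSG00000031765, chr8:94179082-94180327) was at 439, 91.3 and 88.8 FPKM in ND, 343, 194 and 965 in HFD, 199, 182 and 48.8 in CLE, and 60.2, 106 and 140 in LU livers. Its neighbour Mt2 (ENSMUSG00000031762, chr8:94172664-94173568) was at 431, 64.8 and 52.4 in ND, 280, 189 and 1182 in HFD, 182, 108 and 22.4 in CLE, and 31.0, 56.2 and 130 in LU livers. HFD mouse 18 had the highest level of both genes and ND mouse 2 the next, while the highest Mt1 value was 19.8 times the lowest and that of Mt2 52.7 times. Every LU liver was below every HFD liver for both genes, and every CLE liver for Mt2 only.

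Neither gene passed in any comparison. For HFD against ND, the differences were 1.38 for Mt1 (interval -0.15 to 2.91) and 1.79 for Mt2 (interval -0.20 to 3.79), each with an adjusted p of 0.23. CLE was below HFD by -1.72 for Mt1 (interval -3.24 to -0.19, adjusted p = 0.13) and -2.36 for Mt2 (interval -4.35 to -0.36, adjusted p = 0.12). LU was below HFD by -2.04 for Mt1 (interval -3.57 to -0.52) and -2.68 for Mt2 (interval -4.68 to -0.68), each with an adjusted p of 0.15. The intervals of CLE and LU against HFD exclude 0 before adjustment and are wide, and those of HFD against ND include 0. Single mice moved all of them. HFD against ND lay between 0.75 (without HFD mouse 18) and 2.14 (without ND mouse 2) for Mt1 and between 1.01 and 2.75 for Mt2 with the same mice left out. CLE against HFD lay between -2.24 and -1.07 for Mt1 and between -2.98 and -1.49 for Mt2, the smaller sizes without CLE mouse 11, and was -1.08 and -1.57 without HFD mouse 18. LU against HFD was -1.41 and -1.89 without HFD mouse 18. Of the Mt2 sum, 99.5% came from an assembled transcript that starts ahead of the annotated gene.

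Mt1 and Mt2 nevertheless tracked each other closely. Pearson's r of log2(FPKM + 1) was 0.99 over the 12 livers, which share libraries and groups and are given as a description. The ratio of Mt2 to Mt1 was below 1 in 11 livers and at 1.23 in HFD mouse 18, and its lowest value was 0.460 in CLE mouse 11. After Mt2, the genes most like Mt1 were Prelid2 (r = 0.85), RPS25 (0.85), 4933431E20Rik (0.83) and Slc30a1 (0.82). Slc30a1, whose protein carries zinc out of cells and whose transcription also answers to MTF1, was at 18.1, 9.10 and 12.6 FPKM in ND, 11.2, 11.2 and 19.7 in HFD, 13.8, 9.84 and 8.88 in CLE, and 8.51, 7.44 and 11.5 in LU livers. Its highest values were in the same livers as those of Mt1, HFD mouse 18 and ND mouse 2. Slc30a1 was picked for its likeness to Mt1 over these livers, so the shared peaks follow in part from that choice. Prelid2, RPS25 and 4933431E20Rik were also highest in HFD mouse 18, with HFD mouse 12 next. The part of MTF1 was not tested.

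**Figure D4:**
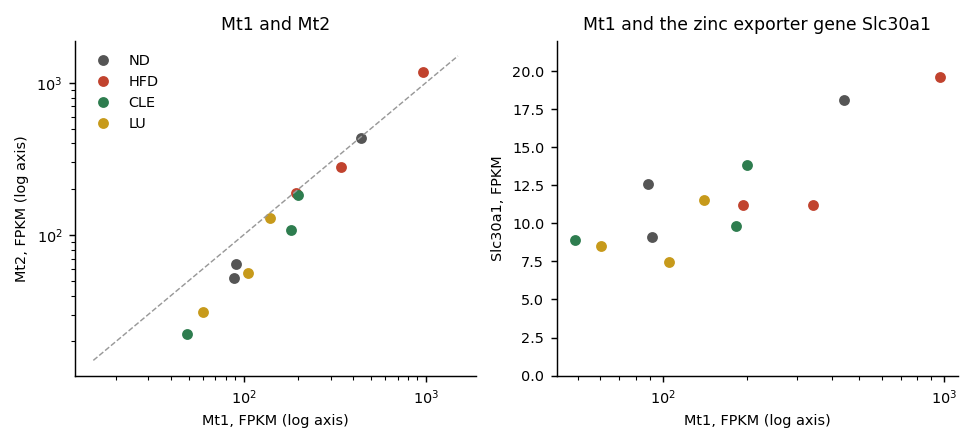
Left, Mt2 against Mt1 in FPKM on log axes, with 1 point per liver, colours for the 4 groups and a dashed line of equal levels; right, Slc30a1 in FPKM on an axis from 0 against Mt1 on a log axis. HFD mouse 18 (Mt1 at 965) and ND mouse 2 (439) are the farthest right, and the LU livers lie at or below 140.

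Among 26 other tested genes of zinc and copper handling, 3 were called in HFD against ND livers, all higher, a share near the 12.1% of all genes. They were Slc39a4, a zinc importer (1.71 ± 0.23, from 2.85, 3.05 and 2.79 to 9.38, 13.0 and 13.3 FPKM, adjusted p = 0.00057), the copper chaperone gene Atox1 (0.89) and the zinc importer gene Slc39a11 (0.58), whose call was lost whichever mouse was left out (adjusted p from 0.069 to 0.13). CLE against HFD had 2 up and 3 down of the 26, beside 6.03% of all genes, and from 0 to 5 were called with a mouse left out. The copper importer gene Slc31a1 fell by 0.86, from 84.5, 95.4 and 72.3 FPKM to 58.0, 35.2 and 46.3 (adjusted p = 0.021), Slc39a11 by 0.69 and Slc30a6, a Golgi zinc transporter, by 0.61, while Slc39a13 rose by 0.59. All 4 calls were lost without HFD mouse 12, HFD mouse 15 or CLE mouse 4, and that of Slc39a11 also without HFD mouse 18 or CLE mouse 11. In LU against HFD, 1 of the 26 was called, Slc30a6, at 10.2, 9.03 and 9.04 in HFD and 5.68, 5.00 and 5.19 in LU livers, a fall by 0.73 (adjusted p = 0.011), beside 1.03% of all genes. Without LU mouse 3 its adjusted p was 0.068. Glucocorticoid-responsive genes, listed because these hormones induce metallothioneins, had 2 of 13 down in HFD against ND livers, beside 12.1% of all genes called. They were Igfbp1 (-2.23) and Pck1 (-0.67, with an adjusted p up to 0.082 with a mouse left out). The other 11 were not called, and the list median was 0.03, against 0.11 for all genes. None was called by limma's test in CLE or LU against HFD, beside 6.03% and 1.03% of all genes.

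By the same measure of likeness, the genes closest to Hamp were Rnaseh2c (r = 0.93), Cox7c (0.92), Gm10221 (0.91), 2010107E04Rik (0.88) and Mocs2 (0.88). Those closest to Tfrc were Pmp22 (0.93), S100a11 (0.92), Tipin (0.92), Mtnr1a (0.92) and Pdgfrb (0.92). Rnaseh2c was at 38.7, 32.5 and 26.5 FPKM in HFD and at 24.2, 38.3 and 32.7 in CLE livers, the order of mice that Hamp had. These are the highest of 11566 correlations and carry no p.

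**Figure D5:**
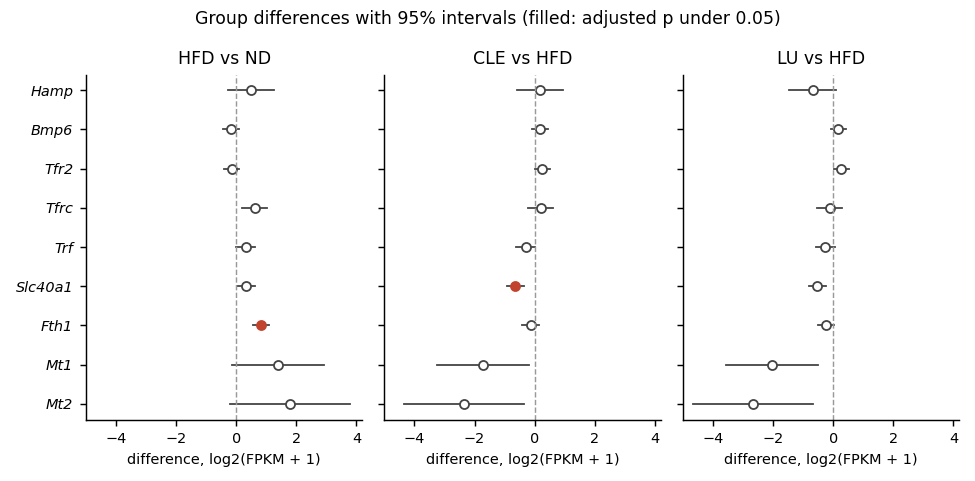
Difference between groups on log2(FPKM + 1) (horizontal axes) for 9 genes in HFD vs ND, CLE vs HFD and LU vs HFD, with 95% intervals as lines. Filled points mark an adjusted p under 0.05, which are Fth1 (0.82) in the first panel and Slc40a1 (-0.64) in the second, and the intervals of Mt1 and Mt2 are the widest.

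Counted over the list, 1 of 9 measured genes was called in HFD against ND, 1 in CLE against HFD, none in LU against HFD, 2 in CLE against ND, 1 in LU against ND and none in CLE against LU, all by limma at 0.05, beside 12.1%, 6.03%, 1.03%, 27%, 14.9% and 0.00865% of all genes. Without adjustment, 3, 3, 4, 3, 2 and 1 had p under 0.05. Over all genes, CLE against LU had 1 call, and 508 without adjustment. Among the 4 groups, the moderated F test called 3 of 9, beside 24.4% of all genes, with adjusted p of 0.0051 for Fth1, 0.020 for Slc40a1 and 0.036 for Tfrc. None of these shares can be read as particular to the list. Tfrc, Slc40a1, Fth1 and Trf, 4 of 9, were higher in every HFD liver than in any ND liver, which was the case for 29.1% of all genes. Slc40a1, Trf and Mt2, 3 of 9, were lower in every CLE liver than in any HFD liver, against 15% of all genes. In LU against HFD, 6 of the 9 genes were lower in every LU liver than in any HFD liver, which was the case for 16.9% of all genes, and Bmp6 was higher, as were 13.1%. Tfrc and Fth1 were higher in every CLE and in every LU liver than in any ND liver, like 32.2% and 29.4% of all genes. The median difference of the 9 genes was 0.49, -0.14 and -0.26 for HFD over ND, CLE over HFD and LU over HFD, against 0.11, 0.02 and -0.02 for all genes.

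Other features of the libraries moved with these groups. Rows of the rRNA-derived names ART2 and TAR1-C held between 54.9% and 72.5% of the summed FPKM, and read totals were not given in the sources used here, so depth is unknown. Kupffer cell and macrophage markers, 6 of 12 of which were called higher in HFD against ND (from 3 to 7 with a mouse left out, beside 12.1% of all genes), summed to between 194 and 227 FPKM in ND, 293 and 442 in HFD, 272 and 395 in CLE, and 227 and 399 in LU livers. Stellate cell markers, with 6 of 10 called higher and from 1 to 5 with a mouse left out, summed to between 140 and 190 in ND and to 225 or more in all other livers. None of 7 hepatocyte markers was called by limma in HFD against ND, beside 12.1% of all genes. In CLE against HFD 2 were higher (Apoa1 by 0.84 and Serpina1a by 0.83), beside 6.03% of all genes called. In LU against HFD 1 was higher (Serpina1a by 0.84), beside 1.03%. Albumin was listed at 0 in 11 of 12 livers, so that a 0 in this table can be a failed estimate. Erythroid markers, of which 4 of 8 were abundant enough to test, summed to between 132 and 182 in ND and 216 and 282 in HFD livers. None was called by limma in HFD against ND or in CLE or LU against HFD. Hba-a1 and Hba-a2 were called higher in both CLE and LU against ND, beside 27% and 14.9% of all genes called. The adipocyte markers Adipoq, Plin1 and Lep, all too low to test, were at 0.589 ± 0.147, 0.2298 ± 0.1004 and 0.167 ± 0.025 FPKM in LU livers (SD, n = 3), and their means in the other groups were at most 0.0987, 0.0219 and 0. Car3, a further marker that liver also expresses, rose by 1.39 in HFD against ND. It was at 1762, 1396 and 1896 FPKM in HFD and 1885, 998 and 713 in LU livers. Of the 6 adipocyte markers, 2 were tested, Car3 among them. Neither was called in LU against HFD, where their median difference was -0.09. The part of these cells in the results was not tested. A score of 15 clock genes, each signed by its correlation with Dbp, was between -1.54 and -0.35 in ND livers and between -0.53 and 1.03 in the others. With the unsigned or the signed score as a covariate, no gene of the list was called in any comparison, and Fth1 in HFD against ND was at 0.66 with either (adjusted p = 0.065 and 0.062). Deviations of each library from the mean, set against GC content, had a Spearman correlation over genes between -0.37 and -0.14 in ND and HFD livers and between 0.16 and 0.48 in CLE and LU livers, so that this feature and the compounds cannot be told apart. After correction for GC content and length, Slc40a1 in CLE against HFD was at -0.47 (adjusted p = 0.047), Fth1 in HFD against ND at 0.63 (adjusted p = 0.0023), and Fth1 in LU against ND at 0.29 (adjusted p = 0.081).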

How the data were processed

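Liver RNA of 12 mice, 3 each of ND, HFD, CLE and LU, was taken from a deposited table that names 30 samples; those analysed here were mapped by title. The authors deposited FPKM per transcript, estimated by Cufflinks. The paper mentions normalization factors, and whether the deposited values were scaled by them is not stated. Named rows summed to between 1698823 (ND mouse 4) and 5575486 FPKM (CLE mouse 4) per liver. The submitters' processing notes name CASAVA 1.8.2, Bowtie2 2.2.3, TopHat2 2.0.12 and Cufflinks 2.2.1; the genome build is not given in the sources used here, but 87.6% of the known transcripts had the start and end of GENCODE M21 (GRCm38). The table held 152210 rows, of which 73424 were assembled transcripts. Rows without a gene name held between 13.9% and 23.7% of the FPKM and were left out. Read totals and thus depth are unknown, so no counting error is given.

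FPKM were summed per gene name and tested as log2(FPKM + 1) with limma 3.58.1 in R 4.3.3, in 1 fit of all 12 mice with a variance trend and 1 coefficient per group, moderated and two-sided. A mean of 0.5 FPKM over the livers was required, which left 11566 genes, and Benjamini-Hochberg adjusted p under 0.05 over all of them was called. Fold changes on this scale understate those of low genes. Intervals are unadjusted 95% intervals. Named were all listed genes, up to 4 called genes with the largest change per gene list and comparison, and the 5 genes most correlated with Hamp, Mt1 and Tfrc; others are stated as picked after their values were seen. Bmpr1a was also named outside this rule. The genes and lists were chosen with earlier results of these data known. The fit was tested on simulated data. Alternatives were another pseudocount, filters, scalings, row choices, 2 groups alone, no trend, GC content and length correction, a clock score, a block on mouse number and leaving out each mouse. Mouse numbers name individual animals, which p-values treat as independent.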

Additional observations from a re-analysis of the deposited data

How the results depend on the processing

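Sums by reference gene and the signed clock score were added after seeing the data. Of the 9 genes, 1 was called in HFD against ND, which became 2 with a pseudocount of 0.1 or the 2 groups alone (Tfrc and Fth1) and 0 with either clock score. In CLE against HFD, 1 became 0 with no filter, with the 2 groups alone and with either clock score, 2 with the row of highest mean (Tfrc and Slc40a1), and 0 to 1 with a mouse left out. In LU against HFD, 0 became 1 with the 2 groups alone (Slc40a1) and stayed 0 with any mouse left out. In CLE against ND, 2 became 4 with the row of highest mean, 0 with either clock score, 1 with the mouse number as a replicate block (Tfrc), and 2 to 4 with a mouse left out, 4 being without CLE mouse 2. In LU against ND, 1 became 3 with the row of highest mean, 0 with either clock score or the replicate block, and 0 to 1 with a mouse left out, 0 being without ND mouse 4. Among the 4 groups, 3 became 0 with either clock score and 1 to 4 with a mouse left out, 1 being without HFD mouse 15 or 18 (Fth1). The causes were not tested.

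Among the differences given in the text, those that changed sign, none of them called, were Hamp in CLE against HFD, from -0.26 (without CLE mouse 4) to 0.56 with a mouse left out, and at -0.04 without HFD mouse 18; Bmp6 in CLE against HFD, at -0.014 after GC content and length correction; Trf with the row of highest mean, at 0.23 in CLE and 0.24 in LU against HFD; and Tfrc in LU against HFD, at 0.59 with that row, 0.11 after GC content and length correction, 0.037 with the signed clock score, and from -0.33 to 0.051 with a mouse left out. Counting each difference of the listed and named genes reported here once per alternative, 1159 kept direction and side of the threshold, 329 lost a call, 12 gained one and 9 reversed. Of 21 further differences of the listed genes, those of CLE and LU against ND and of CLE against LU with an unadjusted p of 0.05 or more, 16 changed sign in some alternative and 4 passed in some.

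The block was possible only for CLE and LU against ND, which share 2 mouse numbers each, with 1 residual degree of freedom. Same-numbered livers had correlations of deviations between -0.26 and 0.18. These values cannot settle whether such livers shared anything beyond the number. All tested genes called numbered 1061 with the block in CLE against ND (3119 without) and 847 in LU against ND (1727 without). Over all tested genes, 1400 called in HFD against ND became 645 with the row of highest mean, 661 with reference transcripts only, and 442 and 345 with the unsigned and signed clock scores. In CLE against HFD, 698 became 127 with no filter, 91 with the 2 groups alone, 263 with the row of highest mean, 1095 after quantile normalization, and 23 and 22 with the clock scores. In LU against HFD, 119 became 57 with no filter, 262 with the 2 groups alone and 17 with the signed score. The share higher among calls in HFD against ND was 82.57%, and 61.55%, 55.71% and 51.45% with median-of-ratios scaling, quantile normalization, and GC content and length correction.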
